A study of Mus musculus with 12 samples.

Results

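Serpins are a large family of proteins, most of which trap and inactivate serine proteases, and 63 of the 21900 protein-coding mouse genes with a position in build mm10 carry a symbol that starts with Serpin. Binding of the glucocorticoid receptor (GR) near these genes was read from the peak lists of 11 chromatin immunoprecipitation (ChIP-seq) libraries of BWTG3, a mouse hepatoma line. The peaks of the 11 lists were merged into 47493 sites, and 87 of these were Serpin sites, with the centre of at least 1 peak inside a Serpin gene or within 50 kb of its span. The genes lie in clusters, so each site was counted once, although 32 of the 87 lay within reach of more than 1 Serpin gene. Merging Serpin genes with overlapping 50 kb windows gave 17 loci, 6 of them with more than 1 gene.

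All cells were kept 24 h in serum-free medium before stimulation, and GR was precipitated with a rabbit antibody. TNFDEX (3 libraries) received the cytokine tumour necrosis factor (TNF) at 1000 U/ml and 1 h later the synthetic glucocorticoid dexamethasone (Dex) at 1 µM, DEX (3 libraries) received 1 µM Dex, TNF (2 libraries) received 1000 U/ml TNF, and NI (3 libraries) carries a title that names neither agent. Stimulation lasted 3 h in total, and the series examines how TNF changes GR binding. The values are normalized tag counts, the authors' tags in a peak per 20000000 tags of the library, from libraries of 39228805 to 51141996 tags. Where a list holds no peak the level is unknown, not 0. Peaks of GR hold no expression, and the hepatoma label was not checked against markers here.

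The inhibitory serpins work as baits: the protease cuts an exposed loop, the serpin refolds, and both stay locked in a covalent complex. Liver secretes many of them into plasma, where they hold coagulation, clot lysis, complement and leukocyte elastase in check, and some members have other tasks, such as carrying steroid and thyroid hormones. Clade letters follow the symbol. Clade A holds the alpha-1-antitrypsin and antichymotrypsin copies and the hormone carriers, clade B the mostly intracellular members, clade E protease nexin 1 and its relatives, and clades C, D, F, G, H and I smaller branches.

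Libraries with Dex held more Serpin sites than libraries without it. TNFDEX libraries 1, 2 and 3 had a peak at 51, 19 and 36 of the 87 sites. DEX libraries 1, 2 and 3 had 18, 25 and 28. TNF libraries 1 and 2 had 16 and 4. NI libraries 1, 2 and 3 had 6, 13 and 2. Every library with Dex lay above every library without it, and the TNFDEX and DEX libraries overlapped. The libraries fell into 2 sets by their mitochondrial peaks. TNFDEX 2, TNFDEX 3, DEX 3, TNF 2 and NI 3 had 0.355% to 0.541% of their tags in mitochondrial peaks, and the other 6 had 0.00645% to 0.0348%. Within each set, too, every library with Dex had more Serpin sites than every library without. As a share of all sites of a library, Serpin sites made up 0.220% to 0.256% in TNFDEX, 0.172% to 0.216% in DEX, 0.0968% to 0.179% in TNF and 0.0792% to 0.200% in NI.

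**Figure D1:**
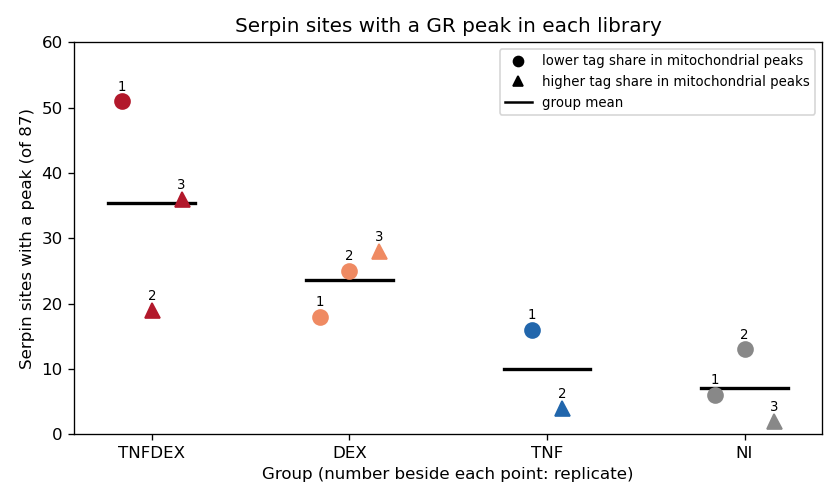
Number of the 87 Serpin sites with a GR peak (vertical axis) in each library (points, labelled by replicate) of the 4 groups (horizontal axis). Bars are group means, and the marker shape gives the mitochondrial tag share. The Dex libraries range from 18 to 51 sites and those without Dex from 2 to 16.

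Peaks in 2 or more libraries of a group were needed to call a site there, which means both libraries in TNF and 2 of 3 in each other group. The TNF count is therefore under a stricter rule than the others. By that rule 27 Serpin sites were called in TNFDEX, 18 in DEX, 1 in TNF and 4 in NI. Over all sites of the series, 24.0% were called in TNFDEX, 19.6% in DEX, 1.95% in TNF and 4.23% in NI, against 31.0%, 20.7%, 1.15% and 4.6% of the Serpin sites, so the Serpin shares in DEX, TNF and NI lay near the background. Of the 27 TNFDEX sites 16 were also called in DEX, which is 59.3% of the TNFDEX and 88.9% of the DEX sites, near the 65.3% and 80.1% over all sites of the series. The higher count in TNFDEX moved with single libraries, and TNFDEX library 1 had 22590 peaks in all, against 8641 and 14043 in the other TNFDEX libraries and 10480 to 13021 in DEX. Without it 13 sites were called in TNFDEX, without TNFDEX library 3 it was 15, and with the 2524 strongest peaks of each library TNFDEX had 3 Serpin sites and DEX 6. The shares over all sites were not counted under these settings, so whether all sites moved alike is not known. In all, 29 sites were called in at least 1 group, and the other 58 were weak or irregular, 46 of them seen in 1 library only, 15 of those in TNFDEX library 1.

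**Figure D2:**
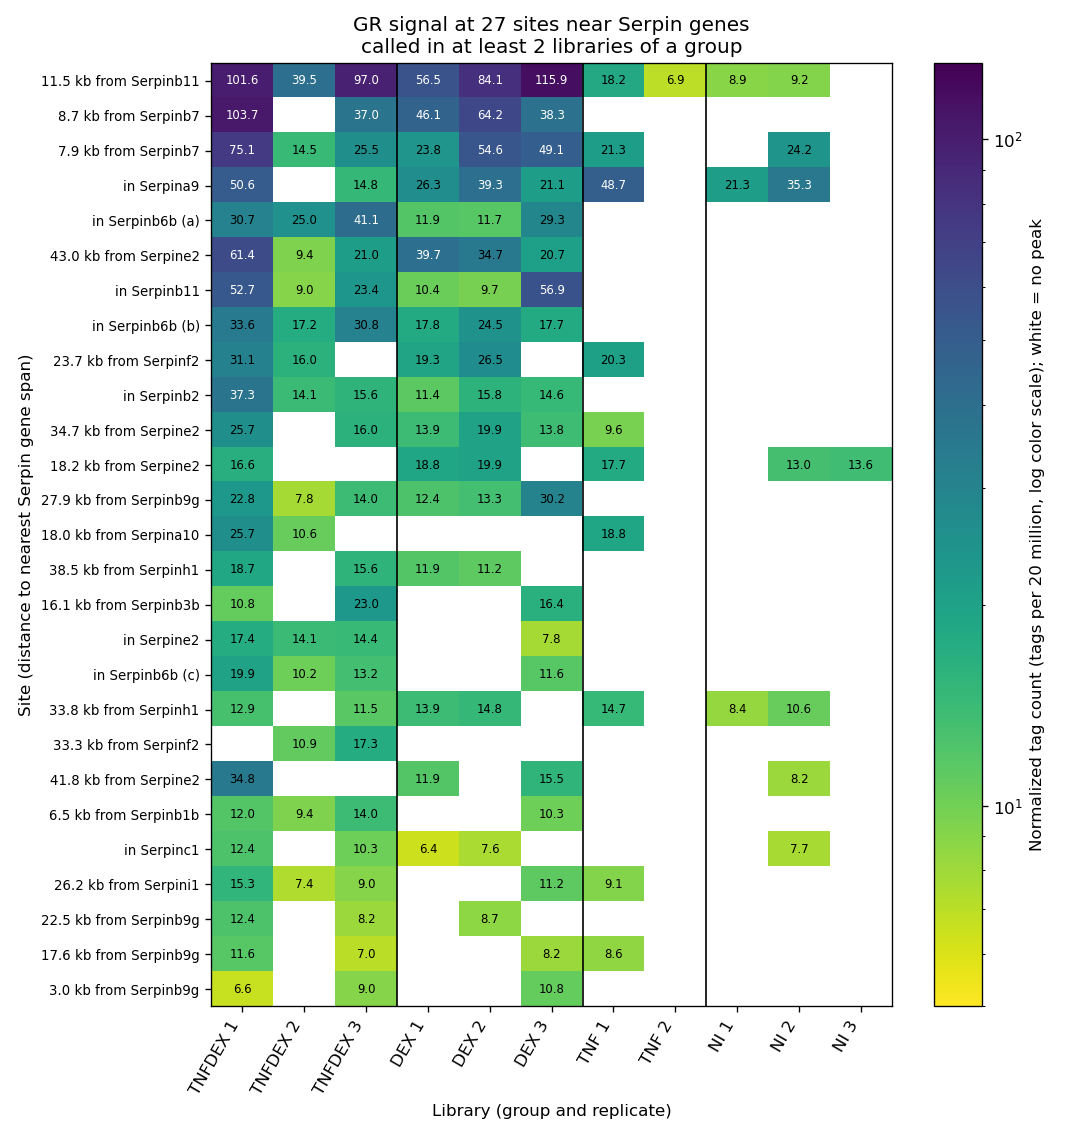
Normalized tag count (colour, log scale, value printed) of 27 called Serpin sites (rows, ordered by their highest group mean) in the 11 libraries (columns), with white where no peak was called. The site 11.5 kb from Serpinb11 is the row with peaks in 10 of 11 libraries, and most other rows are white in TNF and NI.

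By gene, 24 of 63 Serpin genes (38.1%) had a called site within 50 kb in TNFDEX, 18 (28.6%) in DEX, 1 (1.59%) in TNF and 7 (11.1%) in NI. Among all protein-coding genes these shares were 39.4%, 36.5%, 6.08% and 14.8%. By locus, 10 of 17 had a called site in TNFDEX, 8 in DEX, 1 in TNF and 4 in NI. By clade, the 28 clade B genes shared 46 sites, 14 of them called in TNFDEX and 8 in DEX, and 11 of these genes had a called site in TNFDEX and 8 in DEX. The 24 clade A genes shared 6 sites, 2 of them called in TNFDEX and 1 in DEX, and 6 of these genes had a called site in TNFDEX and 4 in DEX. No difference between clades was tested.

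**Figure D3:**
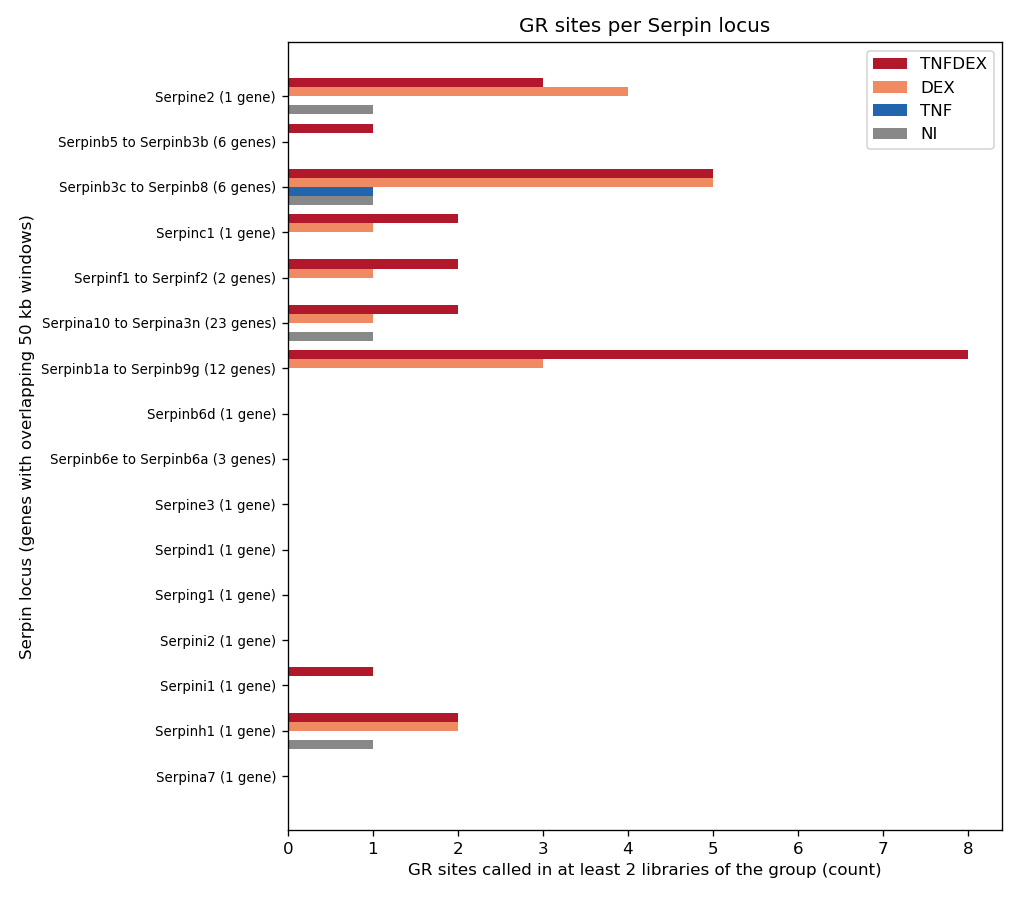
Number of GR sites called in at least 2 libraries of a group (horizontal axis) at 16 Serpin loci (vertical axis), with 1 bar for each of the 4 groups. The 12-gene locus from Serpinb1a to Serpinb9g had 8 in TNFDEX and 3 in DEX, and the 23-gene locus from Serpina10 to Serpina3n had 2 and 1.

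Promoter sequences are shown for 3 Serpin genes, as the start with a GR peak over its upstream bases in 2 libraries and the 2 upstream stretches with the fullest match to a GR element. They are the 250 bases before the gene start from RefSeq (GRCm38.p6, which has mm10 coordinates), read 5′ to 3′ along the gene, in lower case with matches to the searched motifs in capitals. The table held windows for 54 of the 63 genes. Serpind1 encodes heparin cofactor II, a thrombin inhibitor (chr16:17331121-17331370, plus strand), and is the one with the peaks. Serpina3c (chr12:104153873-104154122, minus strand) and Serpina3n (chr12:104406458-104406707, plus strand) are antichymotrypsin-related copies with no peak over these bases.
Serpind1: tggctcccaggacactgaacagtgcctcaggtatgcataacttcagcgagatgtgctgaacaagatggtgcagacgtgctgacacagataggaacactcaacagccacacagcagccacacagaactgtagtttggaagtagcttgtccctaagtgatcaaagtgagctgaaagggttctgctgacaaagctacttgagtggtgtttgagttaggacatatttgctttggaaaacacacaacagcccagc
Serpina3c: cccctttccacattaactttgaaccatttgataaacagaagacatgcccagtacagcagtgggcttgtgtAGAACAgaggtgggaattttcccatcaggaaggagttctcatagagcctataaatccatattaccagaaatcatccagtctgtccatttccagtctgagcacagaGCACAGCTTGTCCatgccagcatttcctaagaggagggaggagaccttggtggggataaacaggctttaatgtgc
Serpina3n: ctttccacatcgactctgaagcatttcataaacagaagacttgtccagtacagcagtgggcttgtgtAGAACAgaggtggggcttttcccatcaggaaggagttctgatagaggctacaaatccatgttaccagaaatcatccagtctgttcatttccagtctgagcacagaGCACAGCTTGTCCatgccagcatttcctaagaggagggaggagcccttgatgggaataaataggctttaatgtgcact

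The motifs were searched on both strands of windows of 250 bases before to 50 after the start. The palindromic GR element, AGAACA and TGTTCT spaced by 3 bases, was in 0 of the 54 Serpin genes and in 0.0114% of 17492 protein-coding genes with windows. A looser form, GNACA and TGTNC spaced by 3 bases, which every palindrome also matches, was in 3 Serpin genes (5.56%; Serpina3c, Serpina3n and Serpinf2) and in 0.503% of all. The element arm TGTTCT, which every palindrome holds, was in 24 Serpin genes (44.4%) and in 18.5% of all. Serpina3c and Serpina3n each show 1 looser element and, apart from it, 1 arm, read here on the other strand as AGAACA, with the same letters in both genes. The Serpind1 stretch shows none of them. These matches describe the letters only. Many of the genes are copies within a cluster, so their promoters are not separate observations.

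GR peaks sat away from the starts. Peaks overlapped the start windows of 4 genes, Serpind1, Serpinb9 (an inhibitor of granzyme B), Serpinb8 and Serpinb6a, and none of these 4 sites was called in a group. At Serpind1 the site (chromosome 16, 17331163 to 17331417) had 8.6 in TNFDEX library 3 and 8.6 in DEX library 3, both of the set with high mitochondrial signal, and lay inside Pi4ka as well. At Serpinb9 the site began just past the start (chromosome 13, 33004576 to 33004792) and had 14.9 in TNFDEX library 1 and 9.2 in DEX library 2. Of the 29 called sites 8 lay inside a Serpin gene and 21 outside, 18 had a Serpin as nearest protein-coding gene, and 9 lay inside another gene. The target gene of a site was not tested.

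The strongest and most constant Serpin site lay 11.5 kb upstream of Serpinb11, an intracellular clade B serpin (chromosome 1, 107350707 to 107350933). It had 101.6, 39.5 and 97.0 in TNFDEX libraries 1 to 3 and 56.5, 84.1 and 115.9 in DEX. It had 18.2 and 6.9 in TNF libraries 1 and 2, and 8.9 and 9.2 in NI libraries 1 and 2, with no peak in NI library 3. Every library with Dex lay above each of the 4 libraries without Dex that had a peak, also within both mitochondrial sets, and the level in NI library 3 is unknown. The peaks stood 10.3-fold to 238-fold over the input by the authors' ratio.

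The signal test used limma on log2 normalized tag counts scaled by trimmed means of M values (TMM factors), over all sites of the series called in every library of both groups, with Benjamini-Hochberg adjustment at 0.05. In TNFDEX against TNF 508 sites could be fitted, 61 (12%) higher and 7 (1.38%) lower. The Serpinb11 site was the only Serpin site among them and rose by a log2 difference of 2.05 (SE 0.31, limma adjusted p = 0.000619), with 79.4 ± 34.6 in TNFDEX (SD, n = 3) and a mean of 12.6 in TNF (2 libraries). The median of the fitted sites was 0.56 higher in TNFDEX before scaling, so the difference is relative to that shift. With library totals in place of TMM the log2 difference was 2.70 and the limma adjusted p = 0.272, the highest of 13 alternatives, which began at 2.51e-12. The call held in 11 of these 13. The counts over all sites moved as well, to 2 higher and 0 lower with library totals, 102 and 73 with the mitochondrial sets as a term, and 307 and 225 without TNF library 2.

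In DEX against NI no Serpin site had a peak in all 6 libraries, so 0 of the 179 sites fitted was a Serpin site (24, or 13.4%, were higher and 5, or 2.79%, lower, against 37 and 19 once replicate number was blocked). When sites called in at least 2 libraries of each group were fitted and libraries without a peak left out, 1502 sites entered, of which 144 (9.59%) were higher and 14 (0.932%) lower, against 243 and 126 with the numbers as a block. The median was 0.41 higher in DEX before scaling. The Serpinb11 site was then higher in DEX by 2.77 on the log2 scale (SE 0.32, limma adjusted p = 0.000528), with 85.5 ± 29.7 in DEX (SD, n = 3) and a mean of 9.05 in the 2 NI libraries with a peak. The other 3 Serpin sites in that fit did not pass, and lay inside Serpina9 (log2 -0.38, limma adjusted p = 0.403), 18.2 kb from Serpine2 (-0.41, 0.620) and 33.8 kb from Serpinh1 (0.17, 0.737). The Serpine2 estimate has no settled direction, since its unscaled means were 19.4 in DEX and 13.3 in NI and the block gave 0.22. In TNF against NI 152 sites had a peak in every library, 0 of them Serpin sites, and 0.0% passed in either direction. With at least 2 libraries per group the Serpinb11 site differed by 0.37 (SE 0.57, limma adjusted p = 0.999), where 0.0% of 587 sites passed in either direction and 17 had an unadjusted p under 0.05.

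Around Serpinb11, its neighbour Serpinb7 and Serpinb2 (plasminogen activator inhibitor 2) on chromosome 1, 5 sites were called in TNFDEX and the same number in DEX. A pair of sites lay 8.7 and 7.9 kb upstream of Serpinb7, a serpin best known from skin. The farther one (chromosome 1, 107413923 to 107414129) had 103.7 and 37.0 in TNFDEX libraries 1 and 3, none in TNFDEX library 2, and 46.1, 64.2 and 38.3 in DEX, with no peak in any TNF or NI library. The nearer one (chromosome 1, 107414672 to 107414887) had 75.1, 14.5 and 25.5 in TNFDEX and 23.8, 54.6 and 49.1 in DEX, beside 21.3 in TNF library 1 and 24.2 in NI library 2. So 1 of these adjacent sites was seen only with Dex, and the other also in 2 libraries without it, both with low mitochondrial signal.

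Inside Serpinb11 (chromosome 1, 107375245 to 107375469) the values were 52.7, 9.0 and 23.4 in TNFDEX and 10.4, 9.7 and 56.9 in DEX, with no peak in TNF or NI. Inside Serpinb2 (chromosome 1, 107502132 to 107502337) they were 37.3, 14.1 and 15.6 in TNFDEX and 11.4, 15.8 and 14.6 in DEX, again with none in TNF or NI. This Serpinb2 site also lay within 50 kb of Serpinb7 and of Serpinb10, a clade B gene of blood-forming cells. At both sites TNFDEX library 1 had the highest TNFDEX value, and the TNFDEX and DEX values overlapped.

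**Figure D4:**
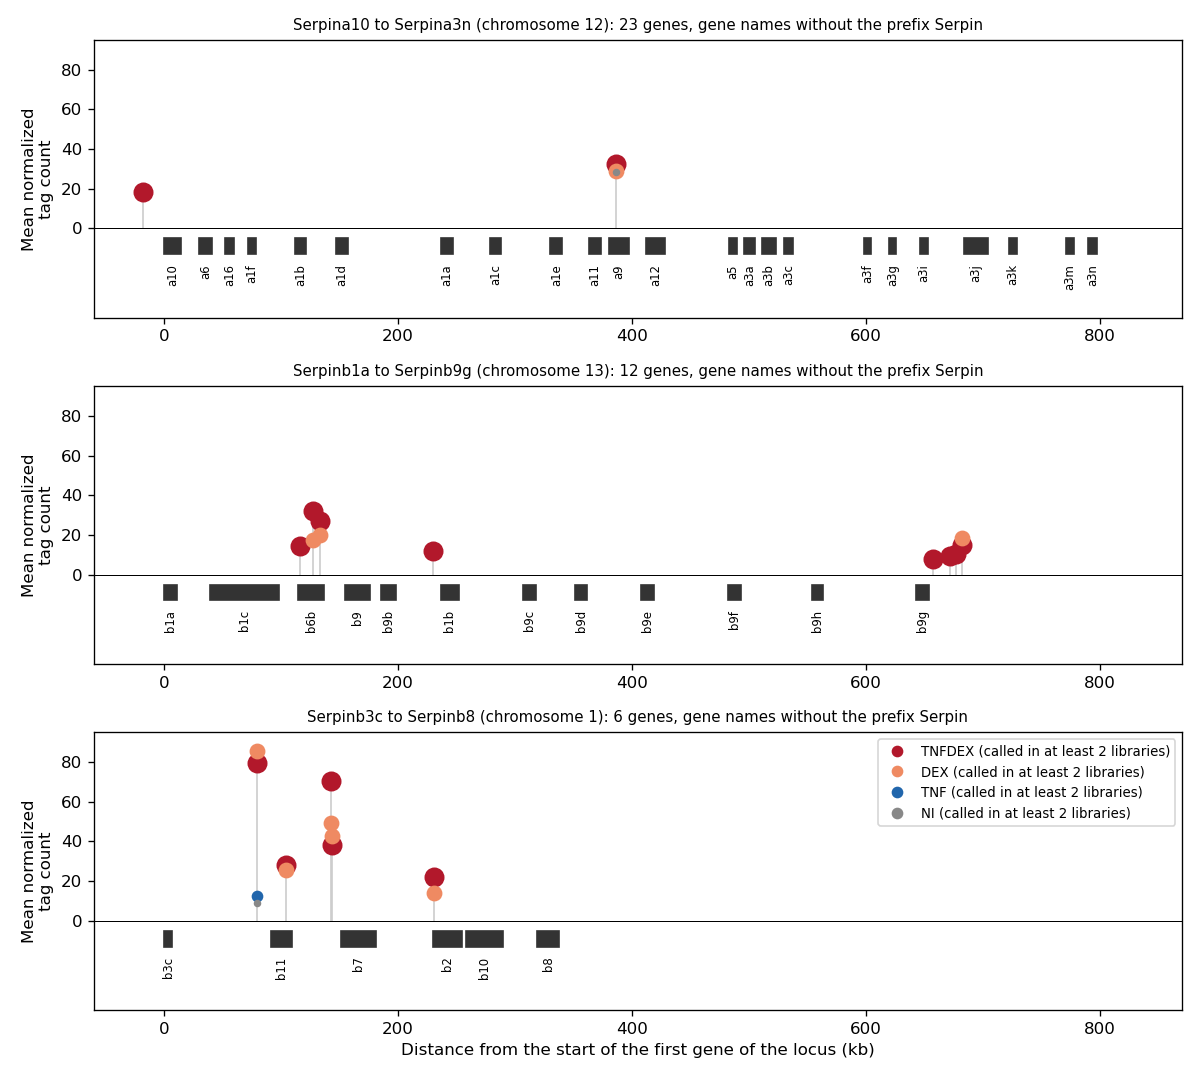
Mean normalized tag count (vertical axis) of each called site in the groups that called it (coloured circles, sized by group so that overlapping ones show) along 3 Serpin clusters, with gene spans as black boxes and distance from the first gene's start in kb (horizontal axis, same scale). The 6-gene cluster on chromosome 1 holds the Serpinb11 site at 79.4 in TNFDEX and 85.5 in DEX, and the 23-gene clade A cluster on chromosome 12 holds 2 called sites.

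The clade B cluster from Serpinb1a to Serpinb9g on chromosome 13 had 21 sites, of which 8 were called in TNFDEX, 3 in DEX and 0 in TNF and NI. Serpinb1a encodes an inhibitor of neutrophil proteases. A site inside Serpinb6b, an intracellular serpin, 4.5 kb past its start (chromosome 13, 32969611 to 32969878), had 30.7, 25.0 and 41.1 in TNFDEX and 11.9, 11.7 and 29.3 in DEX. A second site 10.1 kb past that start (chromosome 13, 32975219 to 32975426) had 33.6, 17.2 and 30.8 in TNFDEX and 17.8, 24.5 and 17.7 in DEX. Neither had a peak in a TNF or NI library, and at both the TNFDEX and DEX values overlapped. Serpinb1c and Serpinb9 lay within 50 kb of both.

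At the other end of this cluster, 27.9 kb from Serpinb9g (chromosome 13, 33523822 to 33524073), the values were 22.8, 7.8 and 14.0 in TNFDEX and 12.4, 13.3 and 30.2 in DEX, with none in TNF or NI. The remaining 5 called sites of the cluster were called in TNFDEX and had a peak in 1 DEX library each. They lay inside Serpinb6b (14.4 ± 4.97 in TNFDEX, SD, n = 3, and 11.6 in DEX library 3), 6.5 kb from Serpinb1b and within reach of Serpinb9b (11.8 ± 2.31, n = 3, and 10.3 in DEX library 3), and 3.0, 17.6 and 22.5 kb from Serpinb9g (means of 7.80 to 10.3 in 2 TNFDEX libraries). One of these, 17.6 kb from Serpinb9g, also had 8.6 in TNF library 1.

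Serpine2 encodes protease nexin 1, an inhibitor of thrombin and plasminogen activators. It had 10 sites, 3 called in TNFDEX, 4 in DEX and 1 in NI, and 8 of the 10 lay inside the neighbour gene Wdfy1. The site that met the call rule in DEX alone, 41.8 kb away, had 34.8 in TNFDEX library 1, 11.9 and 15.5 in DEX libraries 1 and 3 and 8.2 in NI library 2. The site 43.0 kb away, inside Wdfy1 (chromosome 1, 79751214 to 79751431), had 61.4, 9.4 and 21.0 in TNFDEX and 39.7, 34.7 and 20.7 in DEX, with no peak in TNF or NI. A site 34.7 kb away (chromosome 1, 79759517 to 79759833) had 25.7 and 16.0 in TNFDEX libraries 1 and 3, 13.9, 19.9 and 13.8 in DEX and 9.6 in TNF library 1. One 18.2 kb away (chromosome 1, 79775972 to 79776226) had 16.6 in TNFDEX library 1, 18.8 and 19.9 in DEX libraries 1 and 2, 17.7 in TNF library 1, and 13.0 and 13.6 in NI libraries 2 and 3. At that site, whose peaks stood 4.37-fold to 5.24-fold over the input, close to the authors' minimum of 4, the values with and without Dex lay close together. The site inside Serpine2 itself had 17.4, 14.1 and 14.4 in TNFDEX and 7.8 in DEX library 3.

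The other plasma serpins had weaker sites. Serpinc1 encodes antithrombin, and a site 2.1 kb inside the gene (chromosome 1, 160980586 to 160980815) had 12.4 and 10.3 in TNFDEX libraries 1 and 3, 6.4 and 7.6 in DEX libraries 1 and 2, and 7.7 in NI library 2. Serpinf2 encodes alpha-2-antiplasmin, the plasmin inhibitor, and its neighbour Serpinf1 the non-inhibitory pigment epithelium-derived factor. They shared a site 23.7 kb upstream of Serpinf2, whose nearest gene is Tlcd2 (chromosome 11, 75463074 to 75463273), with 31.1 and 16.0 in TNFDEX libraries 1 and 2, 19.3 and 26.5 in DEX libraries 1 and 2, and 20.3 in TNF library 1. A second site 33.3 kb from Serpinf2 was called in TNFDEX (10.9 and 17.3) and had no peak in another group. Serpind1, Serping1 (C1 inhibitor of complement), Serpine3 and Serpini2 had no called site.

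Serpini1 encodes neuroserpin, an inhibitor of tissue plasminogen activator. A site 26.2 kb from it and inside Pdcd10 (chromosome 3, 75531187 to 75531413) had 15.3, 7.4 and 9.0 in TNFDEX, 11.2 in DEX library 3 and 9.1 in TNF library 1. Serpinh1 encodes HSP47, a collagen chaperone that inhibits no protease. Its 2 called sites lay 38.5 and 33.8 kb away inside Map6, in libraries 1 and 3 of TNFDEX and 1 and 2 of DEX. The farther had 18.7 and 15.6 in TNFDEX and 11.9 and 11.2 in DEX. The nearer had 12.9 and 11.5 in TNFDEX, 13.9 and 14.8 in DEX, 14.7 in TNF library 1, and 8.4 and 10.6 in NI libraries 1 and 2. Serpinb3b, related to the human squamous cell carcinoma antigens, had a site 16.1 kb away with 10.8 and 23.0 in TNFDEX libraries 1 and 3 and 16.4 in DEX library 3.

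The clade A cluster on chromosome 12, with 23 genes over 797.7 kb, held 6 sites with 0.223 called sites per 100 kb of window in TNFDEX. This was the lowest of the 10 loci with a called site in TNFDEX, close to 0.250 at the clade B locus Serpinb5 to Serpinb3b. The Serpinb1a to Serpinb9g cluster had 1.06. The rank depends on window length, since 1 called site in the 185 kb window of Serpini1 already gives 0.541. The clade A window spans 897.7 kb. No such density was counted over all genes, so these values have no background. A further 7 loci had no called site. Serpina1a to Serpina1d, copies of the gene for alpha-1-antitrypsin, the main plasma inhibitor of neutrophil elastase, had no site within 50 kb in any library, nor did Serpina3c or Serpina3k. Serpina3n, an acute phase gene, had 1 peak, 26.7 kb away in 1 TNFDEX library. The site inside Serpina9, a serpin of germinal centre B cells (chromosome 12, 104002744 to 104002944), had 50.6 and 14.8 in TNFDEX libraries 1 and 3, 26.3, 39.3 and 21.1 in DEX, 48.7 in TNF library 1, and 21.3 and 35.3 in NI libraries 1 and 2. Groups with and without Dex overlapped there, and Serpina1e, Serpina11 and Serpina12 (vaspin, an adipose serpin) lay within 50 kb. The site 18.0 kb from Serpina10, an inhibitor of coagulation factor X, and within 50 kb of Serpina6, the corticosteroid-binding globulin, lay inside Ppp4r4 (chromosome 12, 103598528 to 103598729). It had 25.7 and 10.6 in TNFDEX libraries 1 and 2, none in DEX, 18.8 in TNF library 1 and none in NI. The Serpina1, Serpina3 and Serpinb9 genes are families of closely related copies, and the handling of reads that map to several copies is not given in the sources used here. Absent binding and unmapped reads cannot be told apart.

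By complete separation, 8 Serpin sites had a peak in 3 of 3 DEX and 0 of 3 NI libraries, which is 9.20% of the 87, against 8.03% of all sites, and 0 had the opposite pattern (0.0147% of all). They were the sites inside Serpinb11, 8.7 kb from Serpinb7, inside Serpinb2, the 2 inside Serpinb6b with the higher values, 27.9 kb from Serpinb9g, and 43.0 and 34.7 kb from Serpine2. Between TNFDEX and TNF 9 sites separated (10.3%, against 8.34% of all sites), and 0 the other way (0.162%). With the 2524 strongest peaks of each library 1 and 0 sites separated in these comparisons. Between TNFDEX and DEX 0 Serpin sites separated in either direction (0.491% and 0.0463% of all sites), and between TNF and NI 0 in either direction (0.244% and 0.019%). Without DEX library 3, 4 sites had a peak in every TNFDEX and no DEX library. Leaving out TNF library 2 leaves 1 TNF library, and 11 sites had a peak in it and in no NI library. The shares of all sites were not counted for the strongest peaks or without these libraries, so these counts cannot be set against a background.

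The comparison of TNFDEX with DEX sets cells given TNF 1 h before Dex beside cells given Dex alone. Stimulation lasted 3 h in total in both groups, so by the labels Dex acted for a shorter time in TNFDEX. TNF and the time in Dex cannot be told apart here. Of 4023 sites called in all 6 libraries, 8 were Serpin sites, and 0 of these passed in limma in either direction, with 1 at an unadjusted p under 0.05. Over all fitted sites 2 (0.0497%) were higher and 0 (0.0%) lower, and the median was 0.14 higher in TNFDEX before scaling. The estimates of the Serpin sites were below 0 at 4 and above 0 at 4, with a median of -0.07 against -0.01 over all. Farthest from 0 was the site 4.5 kb inside Serpinb6b, with 32.3 ± 8.16 in TNFDEX and 17.6 ± 10.1 in DEX (SD, n = 3 each; log2 difference 0.83, SE 0.35, 95% interval 0.06 to 1.61, limma adjusted p = 0.709). The Serpinb11 upstream site differed by -0.32 (95% interval -0.77 to 0.14, limma adjusted p = 0.798), and the site 43.0 kb from Serpine2 by -0.56 (95% interval -1.65 to 0.53, limma adjusted p = 0.837). A p that misses the threshold does not show that the signal was equal. For the Serpinb6b site the limma adjusted p ran from 0.127 to 1.00 over 14 alternatives. The site inside Serpinb11 had an estimate of 0.17, which turned to -0.21 without TNFDEX library 1, -0.05 without DEX library 1 and -0.28 without DEX library 2.

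**Figure D5:**
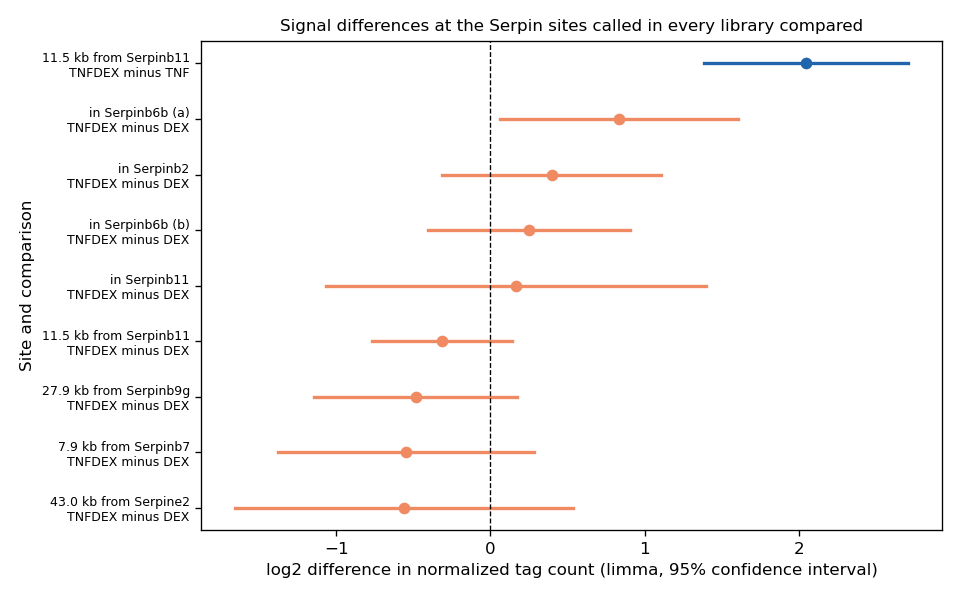
Log2 difference in normalized tag count (horizontal axis; points are limma estimates, lines 95% confidence intervals) at the Serpin sites called in every library compared (vertical axis), for TNFDEX minus TNF (blue) and TNFDEX minus DEX (orange). The Serpinb11 site stands at 2.05 in TNFDEX minus TNF, and the 8 TNFDEX minus DEX estimates lie between -0.56 and 0.83.

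The 50 kb limit left out a site near Serpina7, the thyroxine-binding globulin. It lay 51.1 kb from the gene (chromosome X, 139027998 to 139028197) and was called in all TNFDEX and DEX libraries, at means of 34.7 and 33.7. The called member nearest to the limit was the site 43.0 kb from Serpine2, at 30.6 and 31.7. Serpina7 had no site within 50 kb.

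Other genes of the protease balance were counted from a list of 46. It held 18 target proteases, 4 receptors and binding partners, and 24 inhibitors that are not serpins, so the pooled counts mix both sides of the balance. In TNFDEX 31 of the 46 (67.4%) had a called site within 50 kb, in DEX 25 (54.3%), in TNF 2 (4.35%) and in NI 7 (15.2%), beside the shares of all protein-coding genes given above. Of the 18 target proteases, 11 had a site in TNFDEX and 10 in DEX. As examples, Masp1, a protease of the lectin pathway of complement, had a site with 102 ± 25.0 in TNFDEX and 67.9 ± 52.7 in DEX (SD, n = 3 each). That site had no peak in TNF or NI. The strongest Elane site was as high without Dex. It had a mean of 84.6 in TNFDEX libraries 1 and 3 and 80.2 ± 38.5 in DEX (SD, n = 3). Without Dex it had 148 in TNF library 1 and a mean of 101 in NI libraries 1 and 2. The 24 other inhibitors numbered 18 in TNFDEX and 12 in DEX. Among these Ahsg and Fetub, the fetuin genes, shared a site with 73.8 ± 28.5 in TNFDEX and 84.8 ± 14.0 in DEX (SD, n = 3 each), with a peak of 10.6 in 1 NI library. Spink1, also among these inhibitors, had higher means, with 117 ± 50.4 in TNFDEX and 93.0 ± 76.6 in DEX (SD, n = 3 each). Among the 63 Serpin genes the counts were 24 and 18, and the difference between the lists was not tested.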

How the data were processed

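GR ChIP-seq peak lists of 11 BWTG3 libraries were used, 3 TNFDEX, 3 DEX, 2 TNF and 3 NI by their titles, and the input's own data were not used here. The submitters' processing notes name CASAVA 1.8, Bowtie 1.0.0, HOMER 4.6 and build mm10. Read trimming and the treatment of duplicates were not stated. Per the file headers, peaks came from HOMER findPeaks, run for transcription factors on 1 library at a time with 1 input as control. The headers give thresholds of 0.001 for the false discovery rate, 0.0001 for the Poisson p, and 4-fold over both input and the local 10000 bp. The deposited signal is the normalized tag count per 20000000 tags, counted by the authors in a window centred on each library's own peak, so no count model was run. The deposited ratio over the input served only to describe and filter peaks. Replicates are biological by the design text.

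Peaks sharing at least 1 bp were merged, and the largest peak of a library in a site was taken. Signal was fitted with limma 3.58.1 (R 4.3.3, eBayes with trend, TMM factors over the sites fitted, no pseudocount) on each pair of groups, and checked on simulated data made like TNFDEX minus DEX over 4023 sites, where 37% of changes of 1 and 87% of changes of 2 (log2) were recovered. Python 3.11.15, numpy 2.4.6, pandas 2.3.3 and matplotlib 3.10.9 were used. Gene spans and promoter windows came from RefSeq tables of GRCm38.p6. By rule, every Serpin gene with a called site was named, except that 2 called sites counted in the totals are not reported here one by one, and per-library values were given for the 15 sites with the highest group mean and for sites that passed a test, separated TNFDEX from DEX or TNF from NI, or were called in all 11 libraries (none was). Values of weaker sites were added after seeing them. The members, gene lists and comparisons were chosen with earlier results of these data known. Same-numbered DEX and NI libraries correlated in their deviations from the group means (0.52, 0.54 and 0.68 over 179 sites). Fits with the numbers as a block are therefore given beside the main fits, which had no block. Differently numbered libraries of the low mitochondrial set correlated at 0.37 and 0.49, and libraries of different sets correlated negatively. Same-numbered libraries belong to the same set in this comparison, so the correlations do not tell number from set. The alternatives are in the closing section.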

Additional observations from a re-analysis of the deposited data

How the results depend on the processing

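The number of called Serpin sites moved with most choices. The reported counts were 27 in TNFDEX, 18 in DEX, 1 in TNF and 4 in NI. Asking for every library of the group gave 12 in TNFDEX, 11 in DEX, 1 in TNF and 0 in NI. A 10 kb window gave 13, 9, 0 and 1 in TNFDEX, DEX, TNF and NI, and a 100 kb window gave 2 in TNF. Peaks at least 8-fold over the input gave 16 in TNFDEX, 9 in DEX and 2 in NI. The 2524 strongest peaks of each library gave 3, 6, 0 and 2 in TNFDEX, DEX, TNF and NI, which turned the order of TNFDEX and DEX. Leaving out 1 library of the group gave 13 to 23 in TNFDEX, 12 to 16 in DEX and 0 to 3 in NI (0 without NI replicate 2, 1 without NI replicate 1), and no count could be made for TNF.

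The 8 sites separating DEX from NI became 5 with a 10 kb window, 13 with 100 kb, 3 at 8-fold over the input and 1 with the strongest peaks, and 8 to 10 without 1 library. The 9 separating TNFDEX from TNF became 14 with 100 kb, 4 at 8-fold and 0 with the strongest peaks, and 9 to 16 without 1 library (16 without TNFDEX replicate 2). The opposite pattern, TNF without TNFDEX, ranged from 0 to 3 without 1 library (3 without TNF replicate 1 or 2). Sites in every TNFDEX and no DEX library ranged from 0 to 4 (4 without DEX replicate 3, 1 without TNFDEX replicate 1 or 3), and sites in every TNF and no NI library from 0 to 11 (3 without TNF replicate 1). Merging at 50% overlap changed none of these counts by over 1.5 times. For these alternatives and those of the called counts above, the same shares over all sites were not counted. The causes were not tested.

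For the Serpinb11 upstream site in TNFDEX minus TNF the log2 difference was above 0 in all 13 alternatives, 1.50 to 2.28 without 1 library and 1.74 to 2.70 otherwise, with limma adjusted p = 2.51e-12 to 0.272. It did not pass with library totals (0 Serpin sites higher) or with the replicate number as a block (0 Serpin sites higher, log2 1.88, limma adjusted p = 0.0623, where 2 of 508 sites were higher against 61 as reported). TNFDEX and TNF share 2 numbers, and libraries with the same number correlated at 0.51 and 0.45 over 508 sites and belong to the same mitochondrial set, so number and set cannot be told apart there. With 2 pairs the numbers were not taken to pair the libraries. In DEX minus NI 1 Serpin site was higher when sites with at least 2 libraries per group were fitted, also with the replicate block (1 higher; chosen after seeing the data), and 0 to 1 without 1 library (1 without NI replicate 3). Over all sites that block gave 243 higher and 126 lower, against 144 and 14 without it. In TNFDEX minus DEX 0 Serpin sites passed in any of the 14 alternatives, replicate block and batch term included, although over all sites the higher count ranged from 0 to 22 without 1 library and reached 34 with the replicate block and 62 with the mitochondrial sets as a term. Same-numbered libraries of these groups correlated at 0.37, -0.37 and 0.58. The site inside Serpinb11 (log2 0.17 in TNFDEX minus DEX) turned to -0.21 without TNFDEX replicate 1, -0.05 without DEX replicate 1 and -0.28 without DEX replicate 2, with 0.83 as its highest value without 1 library. In TNF minus NI a Serpin site could be fitted in only 2 alternatives (at least 2 libraries per group, and without NI replicate 3), 1 site in each, and it passed in neither.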
